A study of Homo sapiens with 7 samples.

Results

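The genes that start and run DNA replication were followed in MDA-MB-231 cells after DEPDC1 was knocked down. They were taken by name from the table of counts per Ensembl gene: 56 genes of the origin recognition complex, origin licensing, the replicative helicase, the DNA polymerases, the sliding clamp and the replication fork, out of 60675 gene identifiers. All 56 were found and all 56 had enough counts to be tested, the fewest in any library being 36 counts. The rule picks genes by name and role and applies no cut on a measured value.

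MDA-MB-231 is an established human breast cancer line of the triple-negative kind, which lacks the oestrogen receptor, the progesterone receptor and amplified HER2. In the knockdown cells (siDEPDC1, labelled DEPDC1 KD, n = 4 libraries) a small interfering RNA against DEPDC1 was delivered with Lipofectamine RNAiMAX in Opti-MEM, and the comparison cells (siCTL, labelled DEPDC1 WT, n = 3 libraries) received a control siRNA in the same way. Medium was changed at 8 h, cells were collected at 2 days, and total RNA was sequenced as paired reads of 100 bases. All 7 libraries share this line and this time point, so the model is a single line at a single time. The labels do not say that the libraries came from separate cultures, so every p-value reflects library-to-library spread alone, and that spread may be technical.

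Totals ran from 7690583 to 13483305 counts in siDEPDC1 libraries and from 11704246 to 15360409 counts in siCTL libraries. The means did not differ past the threshold in an exact two-sided permutation test (p = 0.114; the smallest p these group sizes allow is 0.0286). DEPDC1 itself averaged 13.3 ± 1.43 CPM (counts scaled to a common library size) in siDEPDC1 libraries and 118 ± 3.20 CPM in siCTL libraries (SD), a log2 fold change of -3.15 ± 0.075 (standard error; edgeR adjusted p = 1.2e-26). The 6 genes taken as marks of the line (VIM, CD44, KRT18, AXL, CAV1 and ANXA1) lay between 398 and 3773 CPM in siDEPDC1 libraries and between 325 and 3869 CPM in siCTL libraries. Of these, CAV1 was lower in siDEPDC1 libraries (log2 fold change -0.42, edgeR adjusted p = 1.1e-07) and KRT18 higher (0.30, edgeR adjusted p = 9.6e-05). The others did not pass an adjusted p of 0.05. ESR1 and PGR, the hormone receptor genes, were under 1 CPM in every library. The other genes listed as low or absent in this line were ERBB2, which encodes HER2, GATA3 and FOXA1. ERBB2 averaged 66.0 ± 4.14 CPM in siDEPDC1 libraries and 64.5 ± 0.869 CPM in siCTL libraries. GATA3 averaged 7.13 CPM in siDEPDC1 libraries and 6.71 CPM in siCTL libraries, and FOXA1 1.14 and 1.16 CPM. Of 12 markers of blood, vessel, fibroblast and liver cells, 6 were under 1 CPM in every library, and the 12 summed to 54.3 to 61.9 CPM in siDEPDC1 libraries and 37.1 to 42.4 CPM in siCTL libraries. COL1A1, a collagen gene that tumour cells can also transcribe, held most of that difference, with 30.2 ± 2.52 CPM in siDEPDC1 libraries and 12.9 ± 1.35 CPM in siCTL libraries.

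A chromosome is copied from many origins. The origin recognition complex, CDC6 and CDT1 load the ring of MCM2 to MCM7 onto DNA in G1, and geminin (GMNN) holds CDT1 back afterwards so that no origin is loaded again in the same cycle. In S phase the kinase CDC7 with DBF4, and the factors TICRR, TOPBP1 and RECQL4, help join CDC45 and the GINS complex to the ring. MCM10 helps the helicase made in this way to start. Polymerase alpha with primase lays primers, polymerase epsilon copies the leading strand and polymerase delta the lagging strand, and RFC places the sliding clamp PCNA on DNA. Many of these genes are transcribed under E2F factors as cells enter S phase, and tumour lines that divide fast usually keep them high.

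After DEPDC1 knockdown, about as many replication genes were called as among genes at large, more of them lower than higher, and GINS1 was far lower than the others. Of the 56 genes, 18 fell (32.1%), 4 rose (7.14%) and 34 did not pass the threshold (quasi-likelihood test of edgeR, with p adjusted by Benjamini-Hochberg over all 16583 genes tested and a threshold of 0.05). Among all genes tested, 17.9% fell, 16.5% rose and 34.4% were called in either direction, so the 39.3% of replication genes called in either direction is near the background, while the share that fell is above it and the share that rose below it. The median log2 fold change over the 56 genes was -0.12, with quartiles at -0.20 and -0.0014, against a median of 0.00094 and quartiles at -0.19 and 0.18 over all genes tested. After a trend with transcript GC content and length was removed from each library, the median of the 56 was -0.067, against 0.013 over all genes in that fit. In bulk RNA, fewer cells in S phase and less RNA of these genes per cell cannot be told apart.

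The changes were small in size. Of the 22 called genes, 20 differed by less than 1.5-fold, and the median size of change among them was 0.23 on the log2 scale, against 0.37 among all called genes. GINS1 and GMNN were the 2 past 1.5-fold, and 8.38% of all tested genes were called at 1.5-fold or more in either direction. GINS1 alone of the 56 was called and lower by more than 2-fold, while 1.3% of all tested genes were called and lower by at least 2-fold. Of the 34 uncalled genes, 8 had an unadjusted p under 0.05, and the 95% intervals of all 34 lay between -0.44 and 0.36 on the log2 scale, within 1.5-fold either way.

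**Figure D1:**
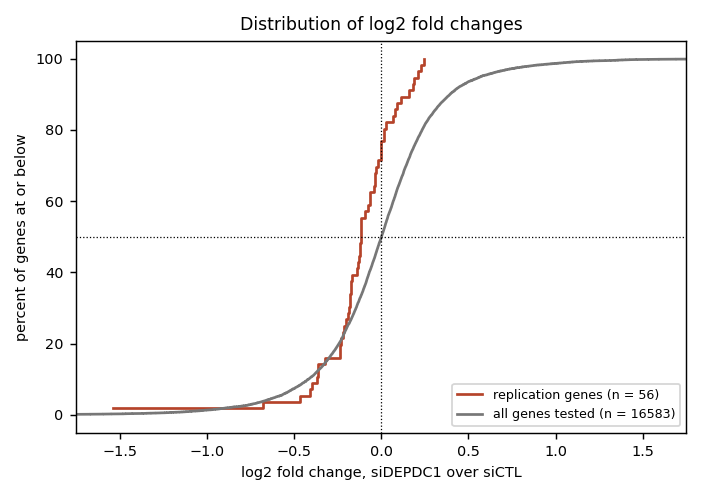
Cumulative percent of genes (vertical axis) at or below a log2 fold change of siDEPDC1 over siCTL (horizontal axis), for the 56 replication genes (red) and all 16583 genes tested (grey). The red line lies to the left of the grey line at its middle, at a median of -0.12 against 0.00094, and GINS1 is the single step far to the left at -1.54.

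The fall did not weigh equally on every siDEPDC1 library. The median log2 ratio of the 56 genes to the siCTL mean was -0.13, -0.074, -0.059 and -0.16 in siDEPDC1 replicates 1 to 4, against 0.0065, 0.011 and -0.016 in siCTL replicates 1 to 3. By this measure every siDEPDC1 library was below every siCTL library, with replicates 4 and 1 lowest. The siCTL libraries are part of the mean they are compared with, which holds their own values near 0. The 56 genes together held 4189, 4373, 4518 and 4184 CPM in the siDEPDC1 libraries and 4667, 4670 and 4528 CPM in the siCTL libraries (replicate order). By sum the groups came close to touching, at 4518 CPM in siDEPDC1 replicate 3 and 4528 CPM in siCTL replicate 3. For 29 of the 56 genes the lowest of the 4 siDEPDC1 values was in replicate 4, and for 19 it was in replicate 1. The same shares over all tested genes are not given here, so these counts may not be particular to the replication genes. Over all tested genes, siDEPDC1 replicates 1 and 4 were the within-group pair that differed most, at 4.59 times the sampling noise. For 20 genes every siDEPDC1 library was below every siCTL library, which held for 19.6% of all tested genes. For 5 genes every siDEPDC1 library was above every siCTL library, against 17.7% of all tested genes, and for 31 the groups overlapped.

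**Figure D2:**
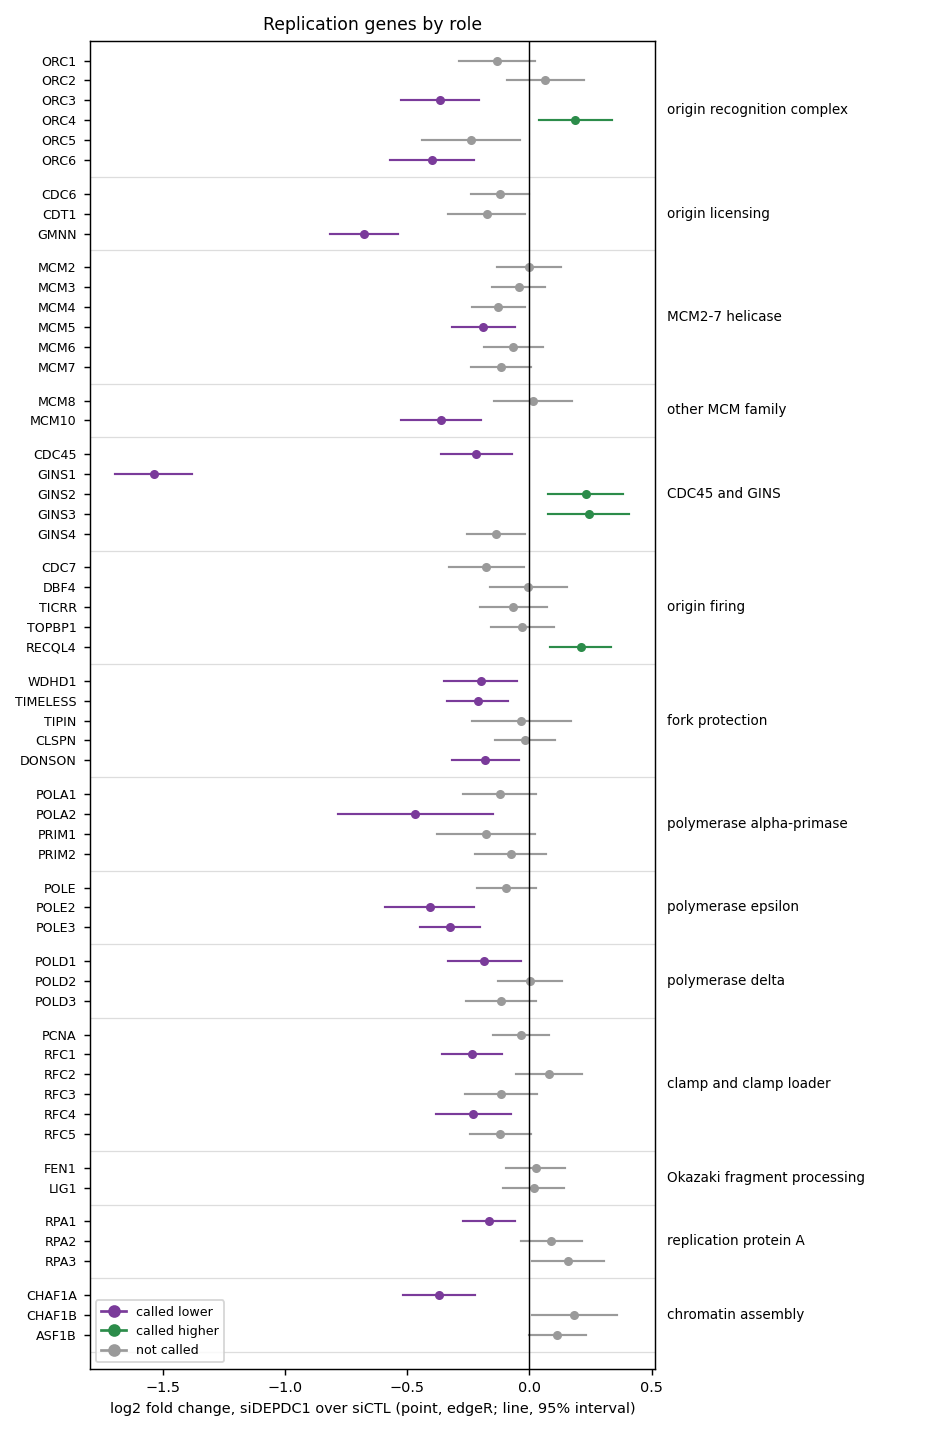
Log2 fold change of siDEPDC1 over siCTL (points) with its 95% interval (lines) for each of the 56 replication genes, grouped by role from the origin recognition complex at the top to chromatin assembly at the bottom. Purple genes were called lower, green genes called higher and grey genes not called. GINS1 lies apart at -1.54, GMNN follows at -0.68, and the other genes lie between -0.47 and 0.24.

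Within the origin recognition complex, which marks origins for loading, ORC3 and ORC6 fell, ORC4 rose, and ORC1, ORC2 and ORC5 did not pass the threshold. ORC6, the smallest and most loosely attached subunit, had 21.2, 20.9, 21.8 and 18.5 CPM in siDEPDC1 libraries, against 27.0, 25.0 and 29.6 CPM in siCTL libraries. All 4 knockdown values were under all 3 control values, and the fall was 1.32-fold (log2 fold change -0.40 ± 0.084, edgeR adjusted p = 0.00029). ORC3 had 31.4, 33.2, 30.2 and 26.6 CPM in siDEPDC1 libraries, against 36.5, 40.0 and 41.1 CPM in siCTL libraries. The groups did not overlap, replicate 4 was the lowest, and the fall was 1.29-fold (-0.37 ± 0.078, edgeR adjusted p = 0.00036).

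ORC4, an ATPase subunit, had 36.9, 39.0, 37.5 and 35.2 CPM in siDEPDC1 libraries, against 33.1, 30.7 and 34.4 CPM in siCTL libraries. Its groups did not overlap either, but in the other direction, and the rise of 1.14-fold was close to the threshold (0.19 ± 0.074, edgeR adjusted p = 0.046). Its call was lost without siCTL replicate 1 or 2, without siDEPDC1 replicate 2 or 3, with no count filter and with DESeq2, and its log2 fold change was 0.34 after the GC and length trend was removed. ORC4 shares 430 exon bases with ACVR2A and 157 with MBD5 on the opposite strand, and both of these neighbours fell (-0.32 and -0.29). ORC1 (log2 fold change -0.13), ORC2 (0.07) and ORC5 (-0.24) had edgeR adjusted p of 0.18, 0.55 and 0.058. ORC2 was called higher with the GC and length trend removed (0.17), and ORC5 lower without siDEPDC1 replicate 2 (-0.30).

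Among the licensing factors, geminin fell, CDC6 did not pass the threshold, and CDT1 passed it in some alternatives only. GMNN (ENSG00000112312, chr6:24774931-24786099, plus strand, GRCh38) encodes the inhibitor of CDT1. Its level was 43.5, 42.9, 40.1 and 37.4 CPM in siDEPDC1 libraries, against 62.8, 66.9 and 67.2 CPM in siCTL libraries. The highest knockdown value was far under the lowest control value. The fall was 1.60-fold (-0.68 ± 0.068, edgeR adjusted p = 7.7e-10), the second-largest among the replication genes, and GMNN ranked 630 of 16583 from the lowest log2 fold change. CDT1, the factor it inhibits, had 45.4, 54.6, 62.0 and 55.9 CPM in siDEPDC1 libraries, against 66.4, 61.0 and 56.1 CPM in siCTL libraries. Those groups overlapped, and replicate 1 was the lowest (-0.17 ± 0.077, edgeR adjusted p = 0.079). CDT1 was called lower with no count filter (-0.19), without siCTL replicate 3 or siDEPDC1 replicate 3 (both -0.23), and with the GC and length trend removed (-0.29, edgeR adjusted p = 0.00014).

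Per kilobase of transcript, the ratio of CDT1 to GMNN was 0.406, 0.495, 0.602 and 0.581 in siDEPDC1 libraries, against 0.412, 0.355 and 0.325 in siCTL libraries. The mean ratio was 0.521 ± 0.0896 in siDEPDC1 libraries and 0.364 ± 0.0441 in siCTL libraries (SD), and the groups overlapped through siDEPDC1 replicate 1. CDC6, the loader ATPase, averaged 101 ± 4.77 CPM in siDEPDC1 libraries and 110.3 ± 3.17 CPM in siCTL libraries (-0.12, edgeR adjusted p = 0.10).

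Of the 6 subunits of the MCM ring, MCM5 fell and the other 5 did not pass the threshold. MCM5 had 85.7, 96.8, 102 and 100.2 CPM in siDEPDC1 libraries, against 114, 112 and 103 CPM in siCTL libraries. The groups just failed to overlap, at 102 CPM in the highest knockdown library and 103 CPM in the lowest control library, and the fall was 1.14-fold (-0.19 ± 0.063, edgeR adjusted p = 0.019). It lost its call without siCTL replicate 1 or 2 and without siDEPDC1 replicate 1.

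MCM4 had 209.9, 211, 219 and 201 CPM in siDEPDC1 libraries, against 228, 229.8 and 230.3 CPM in siCTL libraries. All its knockdown values were under all its control values, but the difference of -0.13 ± 0.053 did not pass (edgeR adjusted p = 0.063). MCM7 had 236, 259, 288 and 264 CPM in siDEPDC1 libraries, against 294, 290.3 and 265 CPM in siCTL libraries. These overlapped, with replicate 1 lowest (-0.12 ± 0.060, edgeR adjusted p = 0.13). With the GC and length trend removed MCM7 was called lower (-0.17, edgeR adjusted p = 0.0015).

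MCM2 had 121, 131, 146 and 138 CPM in siDEPDC1 libraries, against 143, 137 and 122 CPM in siCTL libraries. The groups overlapped throughout, and the difference was -0.0022 ± 0.064 (95% interval -0.13 to 0.13). MCM3 had 348, 356, 377 and 344 CPM in siDEPDC1 libraries, against 371, 369 and 360.3 CPM in siCTL libraries, again with overlap (-0.04, interval -0.15 to 0.07). MCM6 had 101, 96.1, 95.5 and 90.1 CPM in siDEPDC1 libraries, against 101, 103 and 96.6 CPM in siCTL libraries (-0.07, interval -0.19 to 0.05). Its groups overlapped as well.

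Because a longer transcript gives more reads, levels of different subunits were set side by side per kilobase. MCM3 was the highest of the ring at 111 CPM per kb in siDEPDC1 libraries and 114 in siCTL libraries, and MCM7 followed at 88.4 and 95.7. MCM6 and MCM5 were lowest, at 25.6 and 27.2 CPM per kb in siDEPDC1 libraries and 26.8 and 31.0 in siCTL libraries. The ratio of the highest to the lowest subunit was 4.34 in siDEPDC1 cells and 4.27 in siCTL cells.

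Of the other MCM genes, MCM10, which helps the loaded helicase start, had 39.5, 40.3, 43.8 and 31.7 CPM in siDEPDC1 libraries, against 50.3, 52.2 and 46.2 CPM in siCTL libraries. The groups did not overlap, replicate 4 was lowest, and the fall was 1.29-fold (-0.36 ± 0.080, edgeR adjusted p = 0.00054). MCM8, which acts in repair with MCM9, did not pass (0.02, edgeR adjusted p = 0.90).

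The GINS complex, an assembly of 4 different subunits that binds the MCM ring with CDC45, held the widest range of log2 fold changes of any role. GINS1 fell by 1.54 on the log2 scale, GINS2 and GINS3 rose and GINS4 did not pass the threshold. GINS1 (ENSG00000101003, chr20:25407727-25452628, plus strand, GRCh38) had 18.5, 18.0, 19.8 and 16.4 CPM in siDEPDC1 libraries, against 49.6, 54.2 and 53.8 CPM in siCTL libraries. The knockdown libraries sat tightly together, far under the control libraries. Means were 18.2 ± 1.41 CPM and 52.5 ± 2.56 CPM, a 2.91-fold fall (-1.54 ± 0.077, 95% interval -1.70 to -1.38, edgeR adjusted p = 1.1e-17). GINS1 ranked 38 of the 16583 genes from the lowest log2 fold change.

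GINS2 had 33.7, 37.3, 41.0 and 37.3 CPM in siDEPDC1 libraries, against 30.7, 32.8 and 31.6 CPM in siCTL libraries. All 4 knockdown libraries were above the controls, and the rise was 1.17-fold (0.23 ± 0.075, edgeR adjusted p = 0.017). GINS3 had 21.3, 22.2, 21.6 and 22.2 CPM in siDEPDC1 libraries, against 18.5, 18.4 and 18.6 CPM in siCTL libraries. The replicates of each group were very close and did not overlap with the other group (0.24 ± 0.082, 1.18-fold, edgeR adjusted p = 0.020). The call of GINS2 was lost without siCTL replicate 1 or siDEPDC1 replicate 3, and that of GINS3 without siCTL replicate 1 or 2, without siDEPDC1 replicate 2, with no count filter and with DESeq2.

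GINS4 had 85.1, 89.3, 86.0 and 80.8 CPM in siDEPDC1 libraries, against 95.0, 93.2 and 93.2 CPM in siCTL libraries. Its groups did not overlap, but the difference of -0.14 ± 0.059 did not pass (edgeR adjusted p = 0.068). CDC45, their partner in the helicase, had 33.0, 34.9, 36.5 and 38.1 CPM in siDEPDC1 libraries, against 41.2, 41.9 and 41.1 CPM in siCTL libraries. It was lower in 4 of 4 knockdown libraries, by 1.16-fold (-0.22 ± 0.072, edgeR adjusted p = 0.017), and its call was lost without siCTL replicate 2 or siDEPDC1 replicate 2.

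By RNA per kilobase, GINS1 changed its rank among the 4 GINS genes. Protein and the make-up of the complex were not measured. GINS1 was at 5.59 ± 0.433 CPM per kb in siDEPDC1 libraries, the lowest of the 4, and at 16.2 ± 0.789 in siCTL libraries, where only GINS4 was higher. GINS2, GINS3 and GINS4 were at 14.0, 9.61 and 22.2 CPM per kb in siDEPDC1 libraries and at 11.9, 8.13 and 24.4 in siCTL libraries. The ratio of GINS1 to the mean of the other 3 subunits was 0.387, 0.353, 0.387 and 0.338 in siDEPDC1 libraries, against 1.03, 1.12 and 1.12 in siCTL libraries. The mean ratio was 0.366 ± 0.0245 in siDEPDC1 libraries and 1.09 ± 0.0518 in siCTL libraries (SD).

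**Figure D3:**
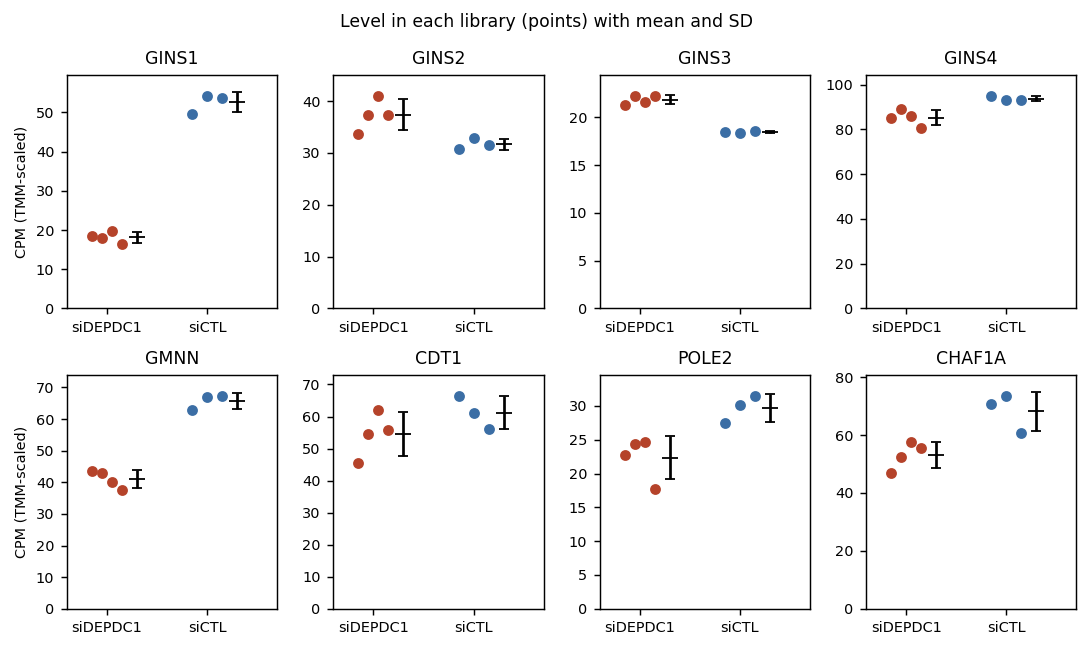
TMM-scaled CPM (vertical axes, from 0) in each of the 4 siDEPDC1 libraries (red, left) and 3 siCTL libraries (blue, right) for the GINS subunits, GMNN with its partner CDT1, POLE2 and CHAF1A, with black marks for mean and SD. GINS1 is at 16.4 to 19.8 CPM in siDEPDC1 libraries and 49.6 to 54.2 CPM in siCTL libraries, while GINS2 and GINS3 are slightly higher in siDEPDC1 libraries.

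The 3′ UTR of GINS1 holds the 7-base word GATAACT, which an earlier look at these same libraries had picked because its carriers fell, so the word and its carriers are given here as a description only. The site and its surroundings are shown because GINS1 is 1 of just 2 replication genes that carry the word in the 3′ UTR of the transcript kept per gene, the other being DONSON. The word is in capitals and both windows are read 5′ to 3′ along the transcript.
GINS1: acattgtttaaGATAACTaagaatacttg
DONSON: tgaaaaactcaGATAACTcaaatgagata
The GINS1 window is chr20:25446096-25446124 (plus strand, GRCh38), in exon 7 of 7, and the word starts at base 116 of a 3′ UTR of 2564 bases. The DONSON window is chr21:33578100-33578128 (minus strand), in exon 10 of 10, and the word starts at base 190 of a 3′ UTR of 402 bases. GINS1 has 1 annotated coding transcript, which carries it, and 2 of 5 coding transcripts of DONSON do.

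Among 12343 tested genes with a 3′ UTR of at least 50 bases, 952 (7.71%) carried the word, and among the replication genes 2 of 56 (3.57%) did. Of all carriers 54.0% fell, with a median log2 fold change of -0.24, against 17.5% and a median of 0.014 for genes without the word. Carriers and the other genes were not matched for 3′ UTR length. GINS1, at -1.54, and DONSON, at -0.18, both fell, by very different amounts. Without these 2 genes, 16 of 54 replication genes fell, 4 rose, and the median stayed at -0.12. MCM10, GINS2 and CHAF1A carry the word only in coding sequence, where MCM10 and CHAF1A fell and GINS2 rose.

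Promoters of the 3 GINS genes that passed the threshold are shown because GINS1 fell while GINS2 and GINS3 rose. They are the RefSeq promoters (GRCh38.p14, 250 bases before to 50 after the annotated start), read along the gene's strand, with the E2F word in capitals. The words searched were TTTCCCGC, TTTCGCGC, TTTGCCGC and TTTGGCGC on either strand.
GINS1: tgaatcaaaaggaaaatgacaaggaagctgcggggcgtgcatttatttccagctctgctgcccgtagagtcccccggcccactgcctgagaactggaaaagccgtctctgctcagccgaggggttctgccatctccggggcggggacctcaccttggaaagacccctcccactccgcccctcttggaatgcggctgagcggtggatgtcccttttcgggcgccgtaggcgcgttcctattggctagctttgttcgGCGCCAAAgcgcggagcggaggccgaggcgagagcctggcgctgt
GINS2: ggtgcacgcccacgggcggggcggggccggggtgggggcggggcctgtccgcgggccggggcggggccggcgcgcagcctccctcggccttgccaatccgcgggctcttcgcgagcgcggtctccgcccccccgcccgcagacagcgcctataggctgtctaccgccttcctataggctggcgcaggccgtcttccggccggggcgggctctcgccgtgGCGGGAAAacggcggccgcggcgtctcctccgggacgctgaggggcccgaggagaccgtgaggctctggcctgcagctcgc
GINS3: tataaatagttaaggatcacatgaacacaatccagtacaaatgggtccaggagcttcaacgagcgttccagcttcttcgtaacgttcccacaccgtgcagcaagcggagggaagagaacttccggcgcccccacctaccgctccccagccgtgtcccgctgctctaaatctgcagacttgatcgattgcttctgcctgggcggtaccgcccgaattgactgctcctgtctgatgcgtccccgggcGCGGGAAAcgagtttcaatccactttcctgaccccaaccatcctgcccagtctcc
These lie at chr20:25407423-25407722 (plus strand), chr16:85688905-85689204 (minus strand) and chr16:58392221-58392520 (plus strand). Each holds 1 match, which is TTTGGCGC read on the opposite strand (GCGCCAAA) in GINS1 and TTTCCCGC read on the opposite strand (GCGGGAAA) in GINS2 and GINS3.

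Over the 48 replication genes with a promoter in the table, 20 (41.7%) held an E2F word, against 3.33% of all 27305 promoters and 5.23% of the promoters of tested genes. By call, 4 of 16 lower genes, 2 of 3 higher genes and 14 of 29 uncalled genes held one. The CCAAT box (CCAAT on either strand), which NF-Y binds, was in 27 of 48 (56.3%), against 35.7% of all promoters and 36.4% of those of tested genes. The TTTGAA word of the cell cycle homology region, an element of many late cell cycle genes, was in 2 of 48 (4.17%), against 15.4% of all promoters and 9.81% of those of tested genes. A match gives the letters alone and is no measure of binding.

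Among the factors that fire loaded origins, RECQL4 rose and no other member passed. RECQL4, a helicase of the RecQ family, had 94.7, 93.2, 97.7 and 101 CPM in siDEPDC1 libraries, against 87.4, 86.2 and 76.3 CPM in siCTL libraries. Every knockdown library was above every control library, by 1.16-fold (0.21 ± 0.061, edgeR adjusted p = 0.0075). Its call was lost without siCTL replicate 3, and after the GC and length trend was removed the value was 0.09 with an edgeR adjusted p of 0.12. An antisense gene that shares 198 exon bases with it, AC084125.4, also rose (0.30, edgeR adjusted p = 0.015), and without a stated strand setting their reads may be mixed. The S phase kinase CDC7 (-0.18 ± 0.076, edgeR adjusted p = 0.068) was lower in 4 of 4 libraries without passing, and was called without siDEPDC1 replicate 1 (-0.20). Its activator DBF4 averaged 35.4 ± 3.30 CPM in siDEPDC1 libraries and 35.4 ± 1.11 CPM in siCTL libraries. TICRR (-0.07) and TOPBP1 (-0.03) also did not pass.

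At the moving fork, WDHD1, TIMELESS and DONSON fell and TIPIN and CLSPN did not pass. TIMELESS, which steadies the fork together with TIPIN, had 56.9, 59.0, 59.0 and 58.4 CPM in siDEPDC1 libraries, against 70.6, 66.0 and 66.1 CPM in siCTL libraries. The knockdown libraries were nearly equal and all under the controls (1.16-fold lower, -0.21 ± 0.062, edgeR adjusted p = 0.0074), and the call was lost without siCTL replicate 1. Its partner TIPIN averaged 14.2 ± 1.53 CPM in siDEPDC1 libraries and 14.6 ± 0.628 CPM in siCTL libraries (-0.03, 95% interval -0.24 to 0.17). CLSPN, the checkpoint mediator claspin, averaged 123 ± 7.85 CPM in siDEPDC1 libraries and 125 ± 6.71 CPM in siCTL libraries.

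WDHD1, which links polymerase alpha to the helicase, had 78.6, 75.0, 75.7 and 58.4 CPM in siDEPDC1 libraries, against 83.8, 77.9 and 86.1 CPM in siCTL libraries. The groups overlapped, and replicate 4 was far below the other knockdown libraries (-0.20 ± 0.074, edgeR adjusted p = 0.035). Without siDEPDC1 replicate 4 the value was -0.11 with an edgeR adjusted p of 0.19, so this call rests on that library; it was also lost without siCTL replicate 1 or 3, with library size alone and with DESeq2. After the GC and length trend was removed the value was -0.07. DONSON, a factor for helicase assembly, averaged 53.8 ± 3.99 CPM in siDEPDC1 libraries and 61.2 ± 2.23 CPM in siCTL libraries (-0.18 ± 0.067, edgeR adjusted p = 0.035). It lost its call without siDEPDC1 replicate 3 or 4, without siCTL replicate 2 or 3, with library size alone and with DESeq2. DONSON shares 307 exon bases with SON on the opposite strand and 286 with AP000311.1 on the same strand. SON averaged 389 CPM in siDEPDC1 libraries and 390 CPM in siCTL libraries, so the level of DONSON may include its reads.

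Polymerase epsilon was the polymerase with most called subunits, POLE2 and POLE3 both falling while the catalytic subunit POLE did not pass. POLE2, the accessory B subunit, had 22.8, 24.3, 24.6 and 17.7 CPM in siDEPDC1 libraries, against 27.4, 30.1 and 31.4 CPM in siCTL libraries. The groups did not overlap, replicate 4 was the lowest, and the fall was 1.33-fold (-0.41 ± 0.090, edgeR adjusted p = 0.00052). POLE3, a small histone-fold subunit, had 96.4, 112, 106 and 102 CPM in siDEPDC1 libraries, against 131, 126 and 137 CPM in siCTL libraries. All knockdown values were well under the controls (1.25-fold lower, -0.33 ± 0.060, edgeR adjusted p = 5.1e-05). C9orf43, which shares 104 exon bases with POLE3 on the opposite strand, fell as well (-0.34, edgeR adjusted p = 0.020) at a level near 10.9 CPM in siDEPDC1 libraries and 13.5 CPM in siCTL libraries. POLE averaged 101 ± 6.17 CPM in siDEPDC1 libraries and 107 ± 4.21 CPM in siCTL libraries (-0.09, edgeR adjusted p = 0.24).

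Of polymerase alpha and primase, POLA2 alone passed. POLA2, the regulatory B subunit, had 3.52, 3.39, 4.69 and 4.37 CPM in siDEPDC1 libraries, against 5.30, 5.45 and 5.56 CPM in siCTL libraries. It was lower in every knockdown library (1.38-fold, -0.47 ± 0.16, edgeR adjusted p = 0.019), but its call was lost without siDEPDC1 replicate 2 or siCTL replicate 2, and with DESeq2. At 1.07 CPM per kb in siDEPDC1 libraries and 1.45 in siCTL libraries, POLA2 was the lowest of the 56. It shares 2012 exon bases on the same strand with AP000944.2, so reads may be split between the 2 or discarded and its level is uncertain. POLA1, the catalytic subunit (-0.12), and the primase subunits PRIM1 (-0.18) and PRIM2 (-0.08) did not pass.

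In polymerase delta, POLD1, the catalytic subunit, had 51.5, 61.3, 65.5 and 65.0 CPM in siDEPDC1 libraries, against 74.8, 69.2 and 62.7 CPM in siCTL libraries. The groups overlapped and replicate 1 was far the lowest (-0.18 ± 0.073, edgeR adjusted p = 0.049). Without siDEPDC1 replicate 1 the value was -0.11 and without siCTL replicate 1 it was -0.12, neither past the threshold, while removal of the GC and length trend gave -0.30. Its call was lost in 9 of 16 alternatives, which also include leaving out siDEPDC1 replicate 2 or siCTL replicate 2, DESeq2 size factors, library size alone, the filter at 50 counts, DESeq2 and limma-voom. POLD1 shares 426 exon bases on the same strand with AC020909.1, so some of its reads may be split or discarded. POLD2 averaged 122 ± 8.67 CPM in siDEPDC1 libraries and 122 ± 11.1 CPM in siCTL libraries, and POLD3 (-0.12) did not pass.

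PCNA, the sliding clamp, did not change past the threshold. Its level was 187, 202, 196 and 179 CPM in siDEPDC1 libraries, against 189, 205 and 193 CPM in siCTL libraries. The groups overlapped throughout, and the 95% interval of its log2 fold change was -0.15 to 0.08. Per kilobase PCNA was the highest of the 56 in both groups, at 141 CPM per kb in siDEPDC1 libraries and 144 in siCTL libraries. Of its loader, RFC1 and RFC4 fell. RFC1, the large subunit, had 106, 106, 95.2 and 94.4 CPM in siDEPDC1 libraries, against 115, 116 and 124 CPM in siCTL libraries. Its groups did not overlap (1.18-fold lower, -0.23 ± 0.060, edgeR adjusted p = 0.0025), and removal of the GC and length trend gave -0.13.

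RFC4, a small subunit of the loader, had 43.9, 49.9, 44.7 and 39.8 CPM in siDEPDC1 libraries, against 48.5, 56.8 and 51.8 CPM in siCTL libraries. These overlapped through siDEPDC1 replicate 2, and the fall was 1.17-fold (-0.23 ± 0.075, edgeR adjusted p = 0.016), a call lost without siDEPDC1 replicate 4 or siCTL replicate 2. RFC2 (0.08), RFC3 (-0.12) and RFC5 (-0.12) did not pass, although RFC5 was called lower with the GC and length trend removed (-0.12, edgeR adjusted p = 0.045). FEN1 and LIG1, which trim and seal Okazaki fragments, were at 0.03 and 0.02 on the log2 scale, also uncalled.

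**Figure D4:**
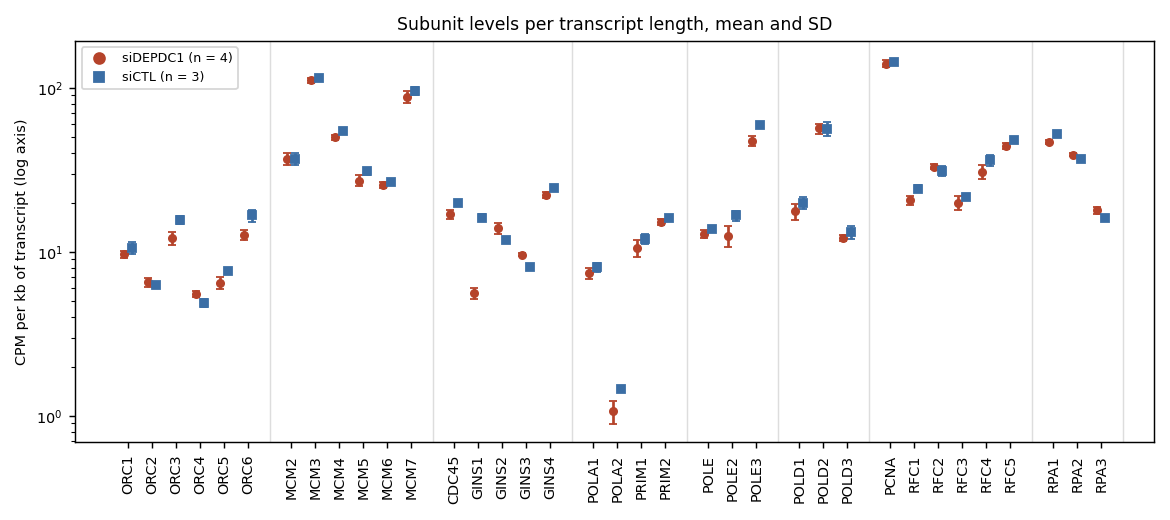
Level per kilobase of transcript (vertical log axis, CPM per kb, mean with SD) of each subunit in 8 replication complexes, siDEPDC1 in red to the left of siCTL in blue. GINS1 shows the widest gap, at 5.59 in siDEPDC1 libraries and 16.2 in siCTL libraries, PCNA is the highest gene at 141 and 144, and POLA2 the lowest at 1.07 and 1.45.

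Of the single-strand binding complex RPA, RPA1 fell and the other subunits did not pass. RPA1, the large subunit, averaged 203 ± 5.48 CPM in siDEPDC1 libraries and 227 ± 3.58 CPM in siCTL libraries and fell by 1.12-fold (-0.17 ± 0.053, edgeR adjusted p = 0.014). Its call was lost without siCTL replicate 1 or 2. RPA2 (0.09, edgeR adjusted p = 0.27) and RPA3 (0.16 ± 0.072, edgeR adjusted p = 0.092) did not pass, although RPA3 was higher in 4 of 4 knockdown libraries and was called with library size alone (0.19) and with the GC and length trend removed (0.18). UMAD1, which shares 118 exon bases with RPA3 on the opposite strand, rose (0.29, edgeR adjusted p = 0.020).

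Among factors that put histones back behind the fork, CHAF1A, the large subunit of CAF-1, had 46.9, 52.5, 57.4 and 55.4 CPM in siDEPDC1 libraries, against 70.6, 73.4 and 60.6 CPM in siCTL libraries. No values overlapped, and the fall was 1.29-fold (-0.37 ± 0.073, edgeR adjusted p = 0.00013). AC011498.3, which shares 81 exon bases with it on the opposite strand, fell too, at 4.80 CPM in siDEPDC1 libraries and 6.67 CPM in siCTL libraries. CHAF1B, the middle subunit, lay on the other side of 0 without passing (0.18 ± 0.085, edgeR adjusted p = 0.093). The histone chaperone ASF1B averaged 197 ± 11.8 CPM in siDEPDC1 libraries and 182 ± 8.09 CPM in siCTL libraries (0.11, edgeR adjusted p = 0.13). CHAF1B was called higher in 4 of 16 alternatives (0.21 to 0.26) and ASF1B with library size alone (0.14) and without siDEPDC1 replicate 1 (0.15).

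**Figure D5:**
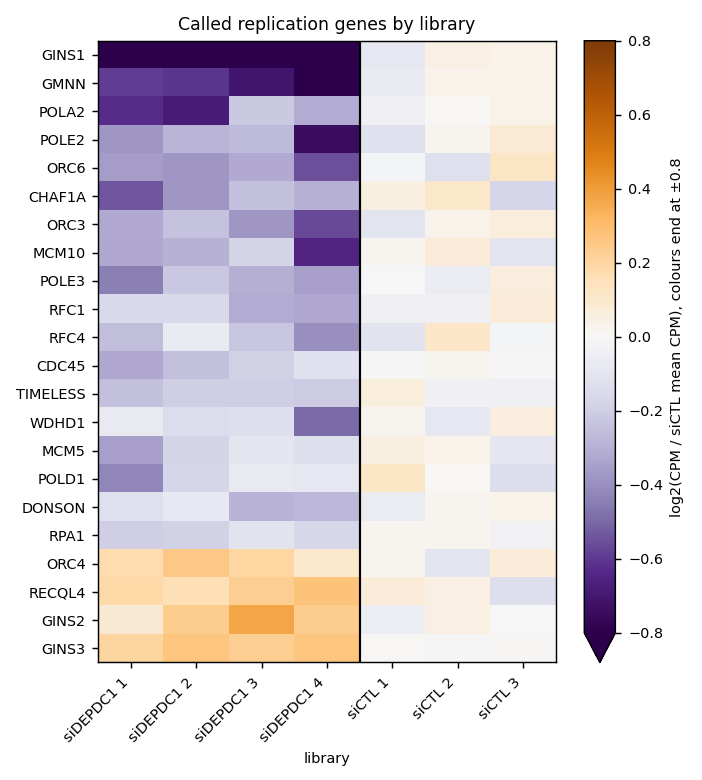
The 22 called replication genes (rows, ordered by log2 fold change) in each library (columns, siDEPDC1 left of the line and siCTL right of it), coloured by log2 of CPM over the siCTL mean CPM, purple for lower and orange for higher. Purple fills the siDEPDC1 columns for the 18 lower genes, with replicate 4 darkest for POLE2, MCM10 and WDHD1 and replicate 1 for CHAF1A and POLD1, and the 4 higher genes are orange in each siDEPDC1 column.

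Other genes of the replication pathway were taken from a list of 36 outside the 56. Of these, 10 fell, 6 rose and 20 did not pass, against 17.9% lower and 16.5% higher among all tested genes, and the median log2 fold change was -0.032. The 6 with the smallest adjusted p were evenly divided. MCMBP, which binds MCM subunits apart from MCM2, averaged 112 ± 4.49 CPM in siDEPDC1 libraries and 152 ± 5.73 CPM in siCTL libraries (-0.44, edgeR adjusted p = 1.1e-07). MMS22L, a partner of TONSL in the repair of broken forks, averaged 38.1 ± 2.16 CPM in siDEPDC1 libraries and 52.3 ± 0.922 CPM in siCTL libraries (-0.46, edgeR adjusted p = 2e-06, and -0.25 with the GC and length trend removed). MMS22L carries the GATAACT word in its 3′ UTR. ETAA1, from the same list of 36, carries the word there too and did not pass (0.08, edgeR adjusted p = 0.52). NASP, a histone chaperone, averaged 219.8 ± 13.2 CPM in siDEPDC1 libraries and 268 ± 11.2 CPM in siCTL libraries (-0.29, edgeR adjusted p = 0.00013).

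The other 3 rose. PCLAF, the PCNA-associated factor, averaged 27.5 ± 3.33 CPM in siDEPDC1 libraries and 20.0 ± 0.849 CPM in siCTL libraries (0.47, edgeR adjusted p = 8.2e-05). POLE4, a small subunit of polymerase epsilon that pairs with POLE3, averaged 32.6 ± 2.05 CPM in siDEPDC1 libraries and 24.1 ± 1.72 CPM in siCTL libraries (0.43, edgeR adjusted p = 5.4e-05). Within polymerase epsilon POLE3 and POLE4 therefore moved in opposite directions. RNASEH2C, a subunit of the nuclease that removes ribonucleotides from DNA, averaged 109.6 ± 11.3 CPM in siDEPDC1 libraries and 87.4 ± 2.76 CPM in siCTL libraries (0.32, edgeR adjusted p = 0.00023).

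Genes of G2 and mitosis, which mark a later part of the cycle, were read in the same libraries. Of 19 tested, 12 rose, 1 (CDK1) fell and 6 did not pass, against 16.5% higher and 17.9% lower among all tested genes, and the median log2 fold change was 0.24. All 20 on the list summed to 5793 to 6225 CPM in siDEPDC1 libraries and 5151 to 5336 CPM in siCTL libraries. The share of cells in each phase was not measured, and its part in the replication genes' values was not tested.

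Reads could be shared with other genes at some of these loci. Of the 56 genes, 28 share exon bases with another annotated gene, 23 of them on the opposite strand and 8 on the same strand. Of the 28, 11 were called, against 39.3% of all 56 and 34.4% of all genes tested. On the opposite strand GINS4 shares 1159 bases with AC009630.2, MCM2 1113 with AC023593.1, TICRR 589 with KIF7 and GINS3 558 with AC009118.2. None of these neighbours passed the threshold, and the levels of these members may include their reads. A further concern is near-identical copies: 7 genes, among them PCNA, RPA2 and FEN1, have annotated pseudogenes named after them. GINS1 and GMNN are in neither group.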

How the data were processed

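The authors deposited raw counts per Ensembl gene for 7 libraries, 4 siDEPDC1 and 3 siCTL, whole numbers that had not been normalized. Per the submitters' processing notes, the build was GRCh38, and FastQC, STAR 2.7.9a and DESeq2 are named without their roles. The counting program, annotation release and strand setting were not given in the sources used here. Without a strand setting, reads of genes that overlap on opposite strands cannot be told apart.

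From these counts, genes were kept by filterByExpr (16583 of 60675) and fitted with edgeR 4.0.16 in R 4.3.3 (TMM scaling, robust quasi-likelihood test, two-sided, group only). P-values were Benjamini-Hochberg adjusted over all 16583 genes, at 0.05. Fold changes are siDEPDC1 over siCTL, errors are standard errors implied by the F statistic, intervals are 95%, and levels are TMM-scaled CPM (mean ± SD). Levels per kilobase and 3′ UTRs used 1 transcript per gene from GENCODE 29, which also gave coordinates and overlaps. The script was tested on simulated counts.

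The 56 genes and the other lists were chosen with earlier results of these data known. Values per library are given for the 20 called genes with the largest absolute log2 fold changes, all GINS and MCM2 to MCM7 subunits and PCNA, and other replication genes are named by the 6 smallest adjusted p. CDT1 is given per library beside its inhibitor, chosen after its values were seen. ETAA1 is named because it carries the GATAACT word. Alternatives were DESeq2 size factors, library size alone, other count filters, DESeq2 1.42.0, limma-voom (limma 3.58.1), a replicate block and leaving out each library. Removal of a GC and length trend (loess, span 0.4) was added after the data were seen. Within-group library pairs differed by 1.67 to 4.59 times the sampling noise (chi-square per degree of freedom), more than sampling noise alone gives. This cannot tell separate cultures from repeat preparations of the same culture.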

Additional observations from a re-analysis of the deposited data

Results flagged for a closer look

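Each of 73 sets of 4 siDEPDC1 values was searched for a library far from the other 3, and 3 sets held one; chance alone gives about 1 in 20. RPA2 had 66.3 CPM in siDEPDC1 replicate 2, below the other 3 siDEPDC1 libraries at 69.0 to 69.2 CPM. RPA3 had 39.0 CPM in the same library, above the others at 35.2 to 35.6 CPM. DTL, which directs the destruction of CDT1, had 59.6 CPM in siDEPDC1 replicate 4, below the others at 68.3 to 69.6 CPM.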

How the results depend on the processing

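Under 16 alternatives, 9 of the 18 lower genes (ORC3, ORC6, GMNN, MCM10, GINS1, POLE2, POLE3, RFC1 and CHAF1A) and 0 of the 4 higher genes were called throughout. Among the other called genes, 13 lost their call in at least 1 alternative, 9 uncalled genes gained one in at least 1, and 25 were never called. No called replication gene changed direction in any alternative. Leaving out siDEPDC1 replicate 4 and taking the 6 libraries numbered 1 to 3 without a block are the same fit, which is thus counted again among the 16. The number of higher replication genes was 7 with library size alone, 2 with no count filter and 2 with DESeq2. Leaving out each library in turn gave 2 to 6 higher replication genes, 11 (without siCTL replicate 2) to 18 lower ones, 4 to 8 higher and 9 to 12 lower genes of the other replication list, and medians of the 56 between -0.14 and -0.099. With the GC and length trend removed, that median was -0.067, against 0.013 over all genes in that fit, and 10 of the other replication genes were higher. In that setting 6 of the 56 gained a call, CDT1, MCM7 and RFC5 as lower and ORC2, RPA3 and CHAF1B as higher. The 2 that lost a call were WDHD1 and RECQL4. DESeq2 called 14 lower replication genes. The cause of these shifts was not tested. GINS1 stayed between -1.58 and -1.46, and GMNN between -0.71 and -0.63.

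Replicate numbers are shared between the groups, but libraries with the same number did not deviate together (correlations -0.116, -0.042 and 0.003 for numbers 1 to 3), so the numbers are not taken as pairs. A replicate block on numbers 1 to 3 gave 15 lower and 3 higher replication genes with a median of -0.097, and GINS3, WDHD1, DONSON and RFC4 lost their calls, against 15 lower and 4 higher in the same 6 libraries without the block. The smallest change called among the 56 genes was 1.12-fold, in RPA1.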
